A study of Mus musculus with 2 samples.

Results

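Melanocytes were examined in 2 droplet single-cell RNA libraries of mouse skin epidermis, 1 library per genotype. They were taken as barcodes with at least 1500 detected genes, at most 10% mitochondrial UMIs (unique molecular identifiers, 1 per captured transcript) and at least 10 UMIs summed over the 4 pigment genes Dct, Pmel, Tyrp1 and Mlana. This rule found 428 of 17915 kept barcodes, 269 of 10993 in the control library and 159 of 6922 in the GOF library. The share of kept barcodes was 2.45% (exact 95% Clopper-Pearson interval 2.17 to 2.75) in control and 2.30% (1.96 to 2.68) in GOF. Of these barcodes 25 in control and 55 in GOF were poor in keratinocyte transcripts and carried the pigment genes at a high level, apart from 1 control barcode that held only 14 pigment UMIs among 11591. Most of the others carried the pigment genes together with basal keratinocyte genes such as Krt14, so the label does not describe them well.

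The control mice were Involucrin-CREER/Rosa-SmoM2, in which an involucrin-driven Cre switches on SmoM2, an active form of the hedgehog transducer Smoothened. The GOF mice carried the same alleles and in addition Krt14rtTA and Survivin GOF, so both groups share SmoM2 and differ in the Survivin alleles (Survivin is the product of Birc5). The rtTA is driven by the keratin 14 promoter, which is active in basal keratinocytes and is no melanocyte driver. Cells had been sorted from epidermis for high integrin α6, absence of CD34 and YFP, and the labels call them epithelial. The protocols give 8046 cells for the control and 10000 cells loaded per channel. The number, sex and age of the mice are not given in the sources used here. With 1 library per genotype there is no replicate check, and every interval here covers counting error only.

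Melanocytes are pigment cells of neural crest origin that sit among the keratinocytes of epidermis and hair follicle. They make melanin inside melanosomes, lysosome-related organelles whose fibrils are built from Pmel, and hand these organelles to neighbouring keratinocytes. Their identity rests on the transcription factors Mitf, Sox10 and Pax3, and their survival on the receptors Kit and Ednrb, which read ligands made by surrounding cells.

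The kept control barcodes had a median of 7654 UMIs outside the melanocyte rule, against 12624 in GOF. The 24844 control and 11438 GOF barcodes shared 84 barcode sequences, the kept ones 22 and the melanocyte barcodes 0. The libraries also differed in sex composition. A barcode was called male with Y-linked and no Xist UMIs, and female with the reverse. Among the melanocyte barcodes 228 were male-called and 1 female-called in control, against 30 and 90 in GOF. The rule left out 92 control and 45 GOF barcodes with 10 or more pigment UMIs because they failed the gene or mitochondrial filter, and their median depth was 1745 and 1460 UMIs.

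The melanocyte barcodes were divided into ranges by their keratinocyte transcripts. For each barcode the share of UMIs from 18 basal keratinocyte genes, such as Krt14 and Krt5, was divided by the median share of the other kept barcodes of its library and is given as a percent. Keratinocyte-poor barcodes, under 25%, numbered 25 in control and 55 in GOF. Their median depth was 4905 and 5483 UMIs, and the 4 pigment genes took a median of 3.97% and 3.85% of their UMIs. A further 72 control and 82 GOF barcodes had a keratinocyte share of 50% or more together with at least 50 UMIs of the 4 genes, and are called keratin-rich, pigment-high. Their median depth was 13060 and 26690 UMIs. Keratin-rich, pigment-low barcodes, with 10 to 49 pigment UMIs, numbered 165 in control and 16 in GOF, at a median of 22530 and 19004 UMIs. The remaining 7 control and 6 GOF barcodes lay between 25 and 50%.

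**Figure D1:**
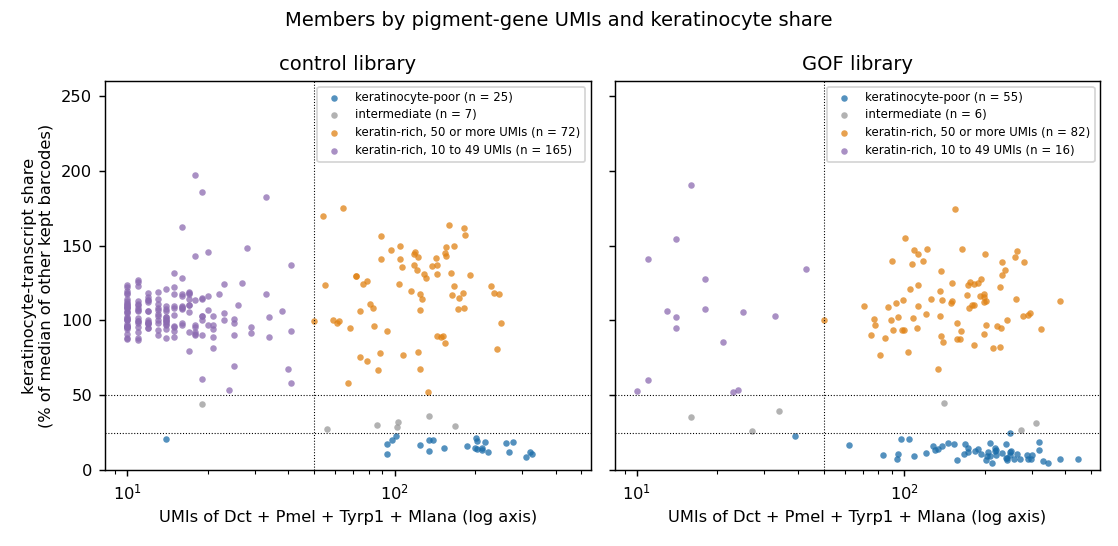
Each point is 1 melanocyte barcode, placed by its UMIs of Dct, Pmel, Tyrp1 and Mlana (log axis) and its keratinocyte-transcript share as a percent of the median of the other kept barcodes, control on the left and GOF on the right. Dotted lines mark 25%, 50% and 50 UMIs. The 25 control and 55 GOF keratinocyte-poor barcodes lie in a band at the bottom, and the 165 pigment-low barcodes of the control library fill the left side.

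These ranges were drawn after the values had been seen, so they are descriptions. Near the lower bound, 18 control and 16 GOF melanocyte barcodes had a keratinocyte share of 15 to 35%, and between 40 and 60% there were 5 and 4. At the pigment threshold itself, 63 control and 3 GOF barcodes held 10 to 12 UMIs of the 4 genes, and 121 and 10 held 7 to 9. In control the 63 just inside had 166 CPM (a gene's UMIs over all UMIs of the summed barcodes, on the usual CPM scale) of Dct and 5.65 CPM of Kit, and the 121 just outside had 135 and 6.28 CPM. Dct is 1 of the 4 genes, so its levels restate these bins, and the Kit levels rest on few UMIs. Outside the rule, UMIs of Tyr, Kit, Ednrb, Sox10, Mc1r or Pax3 were in 48.8% of the 121 and 52.4% of the 63. By these shares the barcodes on either side of the threshold were alike in the control library. Barcodes with both Xist and Y-linked UMIs numbered 1 of 55 in the keratinocyte-poor, 17 of 82 in the pigment-high and 697 of 6763 in the other kept GOF barcodes. Of the same GOF groups 0%, 20.7% and 6.02% stood in the top 6% of doublet scores, whereas in control 0%, 0% and 6.51% did. The part of doublets in the keratin-rich ranges was not tested beyond these values.

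Markers of Merkel, endothelial, immune and fibroblast cells were at 0 or low in the keratinocyte-poor barcodes, while a Schwann cell list was high. The 9 Schwann genes, a lineage that shares its neural crest origin and some genes with melanocytes, summed to 553 and 582 CPM, against 21.8 and 23.3 CPM in the other kept barcodes, with 4 and 3 of the 9 at 0. Merkel cell markers (9 genes) and endothelial and mural markers (6 genes) were at 0 in both libraries. Of 13 immune markers 11 were at 0 in control and 10 in GOF, and the list summed to 15.4 and 12.9 CPM, against 174 and 198 CPM in the other kept barcodes. Of 6 fibroblast markers 4 were at 0 in each library, and the list summed to 76.8 and 41.8 CPM against 513 and 670 CPM. The Krt14 level was 1414 CPM in control and 1092 in GOF, against 12780 and 15100 CPM in the other kept barcodes. It was found in 25 of 25 and 54 of 55 keratinocyte-poor barcodes, so keratinocyte RNA was present at a low level in nearly all of them. The basal list, which chose these barcodes, summed to 16.0% and 12.1% of the level in the other kept barcodes, and a list of 14 suprabasal genes to 32.8% and 32.9%.

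The melanin enzymes differed by less than 1.5-fold between the genotypes in the keratinocyte-poor barcodes. Dct, Tyrp1, Pmel and Mlana were used to choose the barcodes, so their values are a description, whereas Tyr was not. Dct, the dopachrome tautomerase, ran from 690 to 21400 CPM over the 25 control barcodes with a median of 13730, and from 4347 to 26190 CPM over the 55 GOF barcodes with a median of 15150. The ranges overlapped almost entirely. Summed, Dct was at 14070 and 15070 CPM, a GOF/control ratio of 1.07 (exact conditional 95% interval 1.01 to 1.13). Tyr, tyrosinase, which catalyses the rate-limiting step of melanin synthesis, was at 1698 and 1979 CPM (ratio 1.17, 0.998 to 1.365). Tyrp1, which acts later in the eumelanin branch, was at 4426 and 4588 CPM (ratio 1.04, 0.940 to 1.14). Of the 3 enzymes 0 passed a 1.5-fold difference. Over all 1483 genes with at least 50 pooled UMIs in these barcodes, 13.2% were 1.5-fold higher in GOF and 6.14% lower. GOF held 311274 UMIs here and control 130139, so the pooled minimum favours genes high in GOF. That holds for these shares and for the list counts of this range. Without the 1 control and 1 GOF barcode under 50 pigment UMIs, 1 of the 3 enzymes had a ratio above 1 and 2 below. Their median log2 ratio was then -0.02.

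The promoters of all 3 enzymes hold the core of the M-box, CATGTG on either strand, the sequence that Mitf binds. They are shown with those of Slc24a5, Trpm1 and Mc1r, and all 6 were picked because their promoters hold it. The promoters of Kit, Ednrb, Mitf, Gpnmb and Ptgds, genes also found in these barcodes, hold it 0 times in the same window. Sequences are from RefSeq promoters on GRCm38.p6, written 5′ to 3′ on the gene's strand, end before the annotated start and have the motif in capitals.
Dct, chr14:118052355-118052496, minus strand: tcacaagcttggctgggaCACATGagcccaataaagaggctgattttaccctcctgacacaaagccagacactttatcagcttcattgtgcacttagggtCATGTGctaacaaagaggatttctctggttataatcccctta
Tyr, chr7:87493513-87493569, minus strand: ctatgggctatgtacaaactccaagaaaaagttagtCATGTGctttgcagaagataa
Tyrp1, chr4:80834131-80834208, plus strand: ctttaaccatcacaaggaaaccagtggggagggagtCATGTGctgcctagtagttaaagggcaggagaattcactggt
Slc24a5, chr2:125068078-125068126, plus strand: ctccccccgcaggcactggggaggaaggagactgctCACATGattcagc
Trpm1, chr7:64153658-64153735, plus strand: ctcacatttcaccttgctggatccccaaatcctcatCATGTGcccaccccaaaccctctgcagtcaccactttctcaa
Mc1r, chr8:123406984-123407072, plus strand: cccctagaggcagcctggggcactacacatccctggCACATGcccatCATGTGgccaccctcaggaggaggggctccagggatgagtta

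The motif starts 232 and 150 bases before the start of Dct, 21 before that of Tyr, 46 before Tyrp1, 13 before Slc24a5, 141 before Trpm1, and 62 and 51 before Mc1r. In all, CATGTG or CACATG was found in 13 of 76 promoters of the melanocyte lists (17.1%) and in 4650 of 32851 promoters of 300 bases (14.2%). The longer form TCATGTG, which contains the core, was found in 9 of the 76 (11.8%) and in 3.77% of all. The promoter table held 58 of the 76 genes on those lists. A match is a description of the letters in this window.

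Most melanosome genes also differed by less than 1.5-fold. Pmel, the fibril protein, had a median of 14310 CPM over the control barcodes and 13350 CPM over the GOF barcodes, and its summed ratio was 0.939 (0.888 to 0.993). Mlana, a melanosomal membrane protein, was at 4026 and 4366 CPM (ratio 1.08, 0.980 to 1.20). Slc24a5, a cation exchanger of the pigment organelle, was at 3150 and 3961 CPM (ratio 1.26, 1.12 to 1.41), and Oca2, its anion channel, at 384 and 569 CPM (ratio 1.48, 1.08 to 2.07). Slc45a2, a transporter, was at 438 and 382 CPM (ratio 0.873, 0.631 to 1.22), and Gpr143, the receptor mutated in ocular albinism, at 184 and 119 CPM (ratio 0.645, 0.376 to 1.13). Of 10 melanosome structure and transport genes with at least 50 pooled UMIs, 0 were 1.5-fold higher in GOF and 1, Gpr143, was 1.5-fold lower. The shares over all genes were 13.2% higher and 6.14% lower. The median log2 ratio was 0.10 over the 10 melanosome genes, 0.10 over the 3 enzymes and 0.05 over all genes. Without the 1 control and 1 GOF barcode under 50 pigment UMIs, the median over the 10 melanosome genes was -0.02. Of these genes 4 then had a ratio above 1 and 6 below.

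Of 6 measured genes that build and move the organelle 1, Rab27a, was past 1.5-fold in GOF, where 13.2% of all genes were. Myo5a, the motor that carries melanosomes along actin, was at 330 and 482 CPM (ratio 1.46, 1.03 to 2.10), Mlph, its adaptor, at 231 and 273 CPM (ratio 1.19, 0.773 to 1.86), and Rab27a, the GTPase that recruits both, at 99.9 and 174 CPM (ratio 1.74, 0.935 to 3.47). The median log2 ratio of the 6 was 0.47, and 0.34 without the 1 control and 1 GOF barcode under 50 pigment UMIs. The lysosome list, which overlaps in function, summed to 298% and 292% of the level in the other kept barcodes. Of its 14 measured genes 1 was higher, Lgmn (ratio 2.2, 1.02 to 5.41), and 1 was lower, Npc2 (ratio 0.648, 0.493 to 0.856), where 6.14% of all genes were lower.

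Lineage factors were present in both genotypes. Mitf, the master regulator of pigment genes, was found in 23 of 25 control and 53 of 55 GOF barcodes and summed to 961 and 1182 CPM (ratio 1.23, 1.002 to 1.52). Pax3, which acts upstream of it, was at 446 and 543 CPM (ratio 1.22, 0.899 to 1.67). Sox10, the neural crest factor, was at 161 and 254 CPM (ratio 1.57, 0.962 to 2.68). After thinning of every barcode to 3000 UMIs, Sox10 was detected in 32.0% of the control (14.95 to 53.5) and 41.8% of the GOF barcodes (28.7 to 55.9), against 0.0941% and 0% of the other kept barcodes. Unthinned the shares were 52.0% and 69.1%, against 0.354% and 0.266%. Of 8 measured factors 2 were 1.5-fold higher, Sox10 and Ets1 (ratio 1.74, 0.915 to 3.59), and 0 lower. The shares over all genes were 13.2% higher and 6.14% lower. Without the 1 control and 1 GOF barcode under 50 pigment UMIs only Ets1 was past 1.5-fold, and the Sox10 ratio was 1.43 (0.873 to 2.44).

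Of the receptors that read signals from the skin, Kit was past 1.5-fold in GOF with an interval above 1. Kit, the receptor for stem cell factor, ran from 0 to 1314 CPM over the control barcodes with a median of 408, and from 0 to 2691 CPM over the GOF barcodes with a median of 682. Its summed level was 461 CPM (60 UMIs) in control and 761 CPM (237 UMIs) in GOF, a ratio of 1.65 (1.24 to 2.23). In male-called barcodes, 12 in control and 9 in GOF, the ratio was 1.99 (1.17 to 3.44). Ednrb, the endothelin receptor, was at 584 and 790 CPM (ratio 1.35, 1.04 to 1.77). Mc1r, the melanocortin receptor that sets the type of melanin, was at 461 and 601 CPM (ratio 1.30, 0.969 to 1.77). Ptgds, a prostaglandin D synthase, was at 6716 and 8472 CPM (ratio 1.26, 1.17 to 1.36), and Met, the receptor of hepatocyte growth factor, at 215 and 325 CPM (ratio 1.51, 0.984 to 2.38). Of 6 measured receptor and signalling genes 3 were 1.5-fold higher, Kit, Met and Gna11 (ratio 1.84, 0.912 to 4.10), and 0 lower. The shares over all genes were 13.2% higher and 6.14% lower. Without the 1 control barcode described with the cell cycle below and the 1 GOF barcode under 50 pigment UMIs, the Kit ratio was 1.55 (1.15 to 2.10) and that of Met 1.44. In the keratin-rich, pigment-high range the log2 ratio of Kit was 0.12, short of 1.5-fold.

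**Figure D2:**
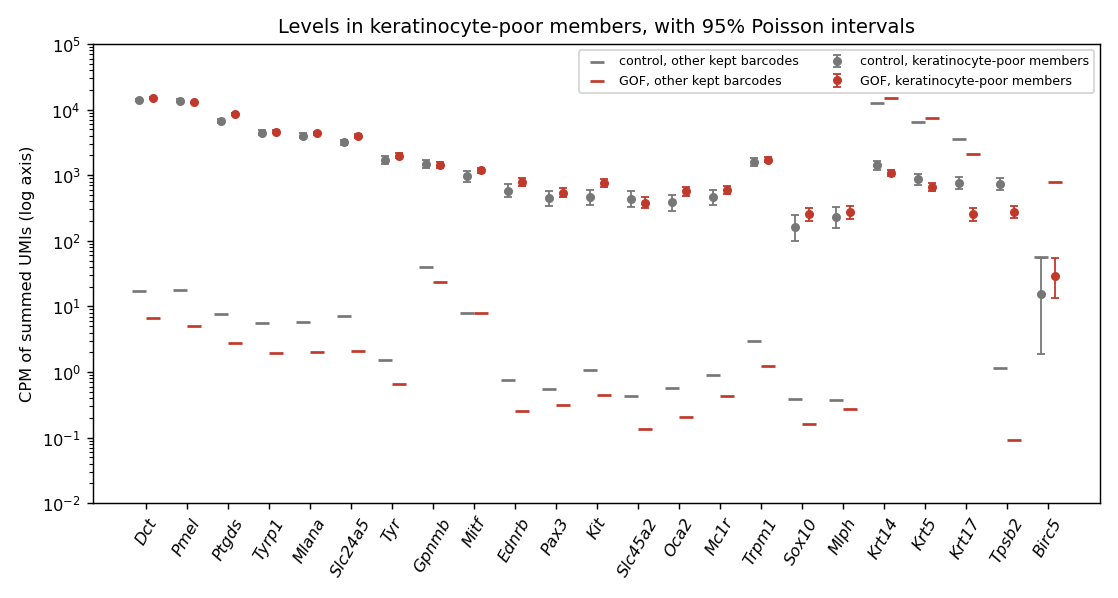
Summed levels of 23 genes in CPM (log axis) in the 25 control (grey) and 55 GOF (red) keratinocyte-poor barcodes, as points with exact 95% Poisson intervals, and in the other kept barcodes of the same library, as dashes. The pigment, lineage and receptor genes lie far above the dashes in both libraries, while Krt14, Krt5, Krt17 and Birc5 lie below them.

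The genes highest over the other kept barcodes included, besides pigment genes, Pde10a, a phosphodiesterase, at 423 and 267 CPM (1993-fold and 7334-fold over the others), and Syt4, a synaptotagmin, at 968 and 839 CPM (866-fold and 3294-fold). These folds divide by very low levels in the other kept barcodes, so their size is uncertain and is not compared between the libraries. In all, 200 of 1483 genes, 13.5%, stood at least 4-fold above the other kept barcodes in both libraries. The 1483 genes were those with enough pooled UMIs in the keratinocyte-poor barcodes themselves, which favours genes high there. Over all melanocyte barcodes the share was 1.43% of 9852 genes, a different gene set, so these shares cannot be compared. The keratinocyte-poor barcodes were chosen by pigment genes and low keratinocyte share, so their contrast with the other kept barcodes carries no test. S100b, which Schwann cells also make, had 261 and 347 CPM (ratio 1.33, 0.896 to 2.01). Phlda1, a MAP kinase responsive gene, was at 1229 and 1561 CPM (ratio 1.27, 1.06 to 1.53).

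Among genes 4-fold enriched, Tpsb2 had the lowest GOF/control ratio. It encodes a tryptase known from mast cells and lies at chr17:25366305-25369098 in mm10. The other 6 mast cell markers tested, among them Cpa3, Cma1 and Fcer1a, were at 0 in the keratinocyte-poor barcodes of both libraries. Tpsb2 was at 730 CPM in control, with UMIs in 19 of 25 barcodes, and at 280 CPM in GOF, with UMIs in 25 of 55 (ratio 0.383, 0.283 to 0.518). In the other kept barcodes, at median depths of 7654 and 12624 UMIs, it was found in 1.07% and 0.148%. Split by sex call, Tpsb2 was at 907 CPM in the 12 male-called control barcodes, 22.0 CPM in the 9 male-called GOF barcodes (1 UMI) and 413 CPM in the 35 female-called GOF barcodes, 24 of which carried it. The same order was seen in the pigment-high range, with 186 CPM in 64 male-called control, 0 UMIs in 17 male-called GOF (exact upper bound 8.16 CPM) and 70.4 CPM in 47 female-called GOF barcodes. The difference between genotypes and a difference between animals cannot be told apart. Tpsb2 has a close paralogue, and how reads were divided between them was not tested.

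H2-D1, a class I histocompatibility heavy chain, differed between sex calls within the GOF library. Its level was 692 CPM in control against 1160 CPM in GOF (ratio 1.68, 1.33 to 2.14), and at 672 CPM in male-called control, 616 CPM in male-called GOF and 1368 CPM in female-called GOF keratinocyte-poor barcodes. The male-called ratio was 0.917 (0.545 to 1.52). In the other kept barcodes the corresponding levels were 401.9, 391.8 and 757.2 CPM. The 31 female-called control barcodes among these were at 422.6 CPM (342.7 to 515.5), close to the male-called ones and below the female-called GOF barcodes. H2 class I genes share sequence, so their counts are uncertain.

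Over all genes with at least 20 CPM and 100 pooled UMIs, the highest GOF/control ratios in the keratinocyte-poor barcodes included S100a4, Ahnak and Acvr1c. S100a4, a calcium-binding protein, was at 99.9 and 391.9 CPM (ratio 3.92, 2.21 to 7.58), but 71 of its 122 GOF UMIs were in 1 barcode. Ahnak, a giant scaffold protein, was at 415 and 1002 CPM (ratio 2.42, 1.81 to 3.29), with UMIs in 20 of 25 and 53 of 55 barcodes, and its male-called ratio was 3.93 (2.335 to 6.88). Acvr1c, the activin receptor ALK7, was at 223 and 517 CPM (ratio 2.32, 1.56 to 3.58), with a male-called ratio of 2.23 (0.963 to 5.44). Besides Tpsb2, the lowest ratios were those of the keratins Krt17 and Krt2. Krt17 was at 768 and 257 CPM (ratio 0.335, 0.246 to 0.453), Krt2 at 469 and 161 CPM (ratio 0.343, 0.231 to 0.506) and Krt10 at 1229 and 623 CPM (ratio 0.507, 0.409 to 0.629). In the other kept barcodes the same ratios were 0.596, 0.304 and 0.703. Of 8 measured suprabasal genes 5 were 1.5-fold lower, and of 11 basal genes 3 were lower and 1, Dst, higher. Over all measured genes of the keratinocyte-poor barcodes 6.14% were lower and 13.2% higher.

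Birc5, the gene raised by the GOF allele, lies at chr11:117849251-117855743 in mm10 and encodes Survivin, a subunit of the chromosomal passenger complex and an inhibitor of apoptosis family member. The keratinocyte-poor barcodes held little of it in either genotype. It was at 15.4 CPM (1.86 to 55.5) in control, from 2 UMIs in 1 of 25 barcodes, and at 28.9 CPM (13.2 to 54.9) in GOF, from 9 UMIs in 9 of 55. The GOF/control ratio was 1.88, and with so few UMIs a difference was not detectable at this depth. The other kept barcodes were at 55.9 and 778 CPM, so the GOF keratinocyte-poor barcodes lay well below the GOF keratinocytes and their interval does not reach them. Keratin-rich, pigment-high barcodes were at 53.7 CPM (40.9 to 69.3) and 750 CPM (717 to 785), and pigment-low barcodes at 62.7 and 639 CPM, both close to the other kept barcodes of their library. The 6 intermediate GOF barcodes were at 979 CPM, with 67 of 152 UMIs in 1 of them. Per 1000 UMIs of Krt14, Birc5 was at 26.5 in the GOF keratinocyte-poor and 51.5 in the other kept GOF barcodes, and in control at 10.9, from 2 UMIs, and 4.37.

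**Figure D3:**
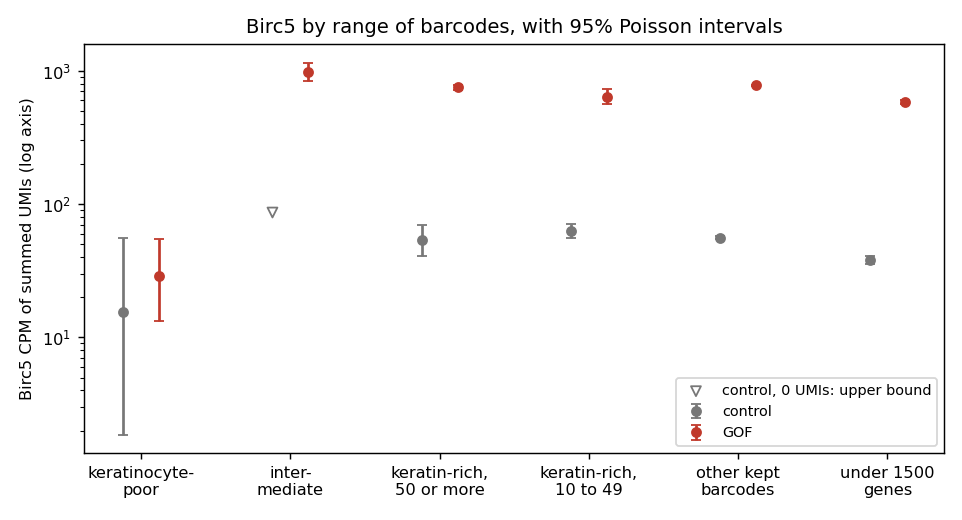
Birc5 level in CPM of summed UMIs (log axis) in each range of melanocyte barcodes, in the other kept barcodes and in barcodes with under 1500 genes, for control (grey) and GOF (red), with exact 95% Poisson intervals. The open triangle is the upper bound for the 7 intermediate control barcodes, which held 0 UMIs. Only in the keratinocyte-poor range do the intervals of the libraries overlap among the ranges with UMIs in both.

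Over all melanocyte barcodes pooled, the Birc5 ratio was 11.5 (10.2 to 12.96). In the pigment-high range the 17 male-called GOF barcodes stood at 955 CPM, against 56.2 CPM in 64 male-called control barcodes. YFP was at 1 UMI in the 25 control and 0 UMIs in the 55 GOF keratinocyte-poor barcodes, which allows up to 11.85 CPM (exact upper bound) in GOF. The other kept barcodes were at 12.5 and 8.01 CPM, so a lower level was not detectable at this depth.

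Mitotic transcripts were found in a minority of the keratinocyte-poor barcodes. Thinned to 3000 UMIs, the expected share with at least 1 UMI of 12 core mitotic genes, such as Mki67 and Top2a, was 37.1% in control (18.0 to 57.5, n = 25) and 14.3% in GOF (6.495 to 26.7, n = 55). The intervals overlap. Unthinned, it was 48.0% and 21.8%. Suprabasal barcodes, the top 10% of the other kept barcodes by suprabasal genes, were at 31.8% and 14.3%, at median depths of 7926 and 12494 UMIs, and all other kept barcodes at 52.4% and 31.9%. The control interval holds both the suprabasal and the other share, and the GOF interval holds the suprabasal share but not that of the other kept barcodes. Of the 55 mitotic UMIs of the control keratinocyte-poor range, 39 were in 1 barcode with 11591 UMIs and 14 pigment UMIs, which also held both Birc5 UMIs and 14 of 20 UMIs of the hedgehog target Ptch1. Without it the mitotic list was at 135 CPM in control, against 54.6 CPM in GOF, and Ptch1 at 50.6 CPM, against 48.2 CPM in GOF. Birc5 was then at 0 UMIs in control, with an exact upper bound of 31.1 CPM. An S-phase list summed to 1168 and 572 CPM, and to 995 CPM in control without that barcode.

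Pooling the ranges changed the genotype comparison. Over all melanocyte barcodes Dct was at 1227 and 3325 CPM (ratio 2.71), Tyr at 135 and 422 CPM (ratio 3.12) and Kit at 48.5 and 192 CPM (ratio 3.95). Of 9852 measured genes 17.4% were 1.5-fold higher in GOF and 6.3% lower, and all 3 enzymes and 11 of 14 melanosome structure genes were among those higher. These list counts include genes of the rule, such as Dct, Tyrp1 and Pmel, so they are a description. In the pigment-high range the enzymes and melanosome genes had lower CPM in GOF. This range was chosen by at least 50 UMIs of Dct, Pmel, Tyrp1 and Mlana, so the values of these 4 genes are a description. Its GOF barcodes had a median of 26690 UMIs against 13060 in control, and the part of depth was not tested. Tyr, which the rule did not use, had a ratio of 0.793 (0.701 to 0.897). Its level rose with the 4-gene sum, so the choice bears on it too. In control it was at 14.2 CPM at 10 to 19 UMIs and 1290 CPM at 200 or more, and in GOF at 28.0 and 800 CPM. Dct was at 3119 and 2322 CPM (ratio 0.744, 0.713 to 0.777), Pmel at 3205 and 1907 CPM (ratio 0.595, 0.569 to 0.622) and Tyrp1 at 1087 and 684 CPM (ratio 0.630, 0.585 to 0.679). Of 10 melanosome structure genes 4 were 1.5-fold lower and 0 higher, where 3.71% of 7364 genes were lower and 8.84% higher. The 4 include genes that chose the range, such as Pmel, so this count is a description too. In the keratinocyte-poor range, as given above, the enzymes differed by less than 1.5-fold. The control library held 165 pigment-low barcodes with Dct at 268 CPM, and the GOF library 16.

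**Figure D4:**
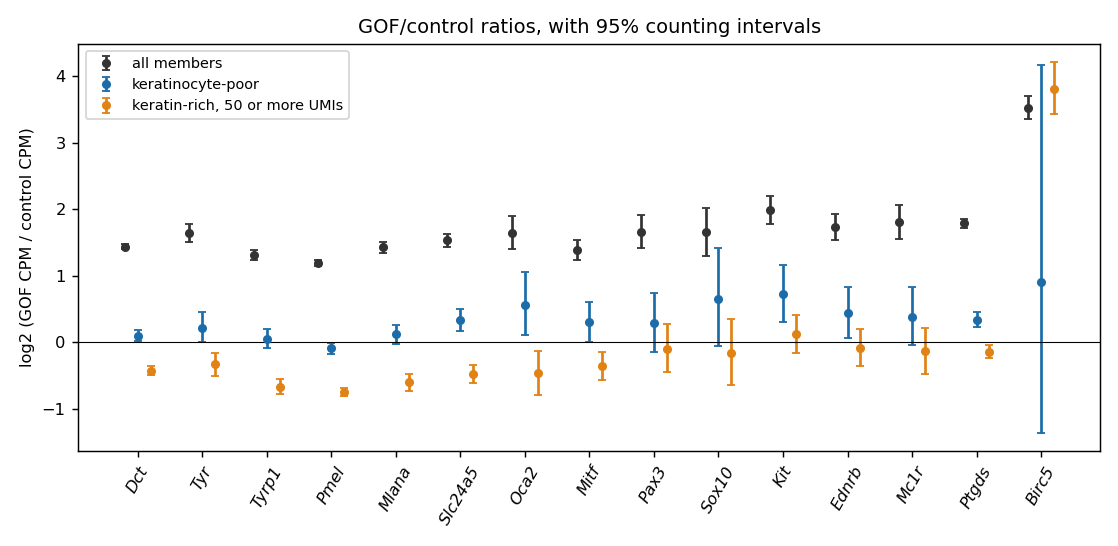
GOF/control ratios on the log2 scale, with exact 95% counting intervals, for 14 melanocyte genes and Birc5 in all melanocyte barcodes (black), keratinocyte-poor barcodes (blue) and keratin-rich, pigment-high barcodes (orange). The black points of the pigment genes lie above 1, the blue ones from Dct to Oca2 between -0.09 and 0.57 and the orange ones of Dct, Tyr, Tyrp1, Pmel, Mlana and Slc24a5 below 0.

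The keratin-rich ranges were chosen by the basal list, so its level there restates the choice. In the pigment-high range it stood at 121% and 118% of the other kept barcodes, with Krt14 at 19880 and 22200 CPM. Suprabasal genes, which the choice did not use, were lower, at 75.1% and 62.7%, with Krt10 at 1250 and 473 CPM against 4036 and 2835 CPM. Hair follicle genes were at 35.4% and 28.3%. Kitl, which encodes stem cell factor, the ligand of Kit, was at 41.0 CPM (29.9 to 54.8) and 88.3 CPM (76.9 to 101) in this range, against 15.8 and 26.1 CPM in the other kept barcodes and 61.5 and 41.8 CPM in the keratinocyte-poor barcodes, from 8 and 13 UMIs. Edn1, the ligand of Ednrb, was at 10.9 and 2.44 CPM, against 21.7 and 20.3 CPM in the other kept barcodes. Its pooled UMIs in the pigment-high range were below the minimum for a measured gene. The Edn1 levels of this range are therefore not compared between the libraries. Of 22 measured S-phase genes 14 were 1.5-fold higher in GOF and 0 lower, where 8.84% of all genes were higher and 3.71% lower. The S-phase list summed to 815 and 1300 CPM. In the other kept barcodes 2 of 26 were higher, where 6.82% of all genes were higher and 5.38% lower. The median log2 ratio of the S-phase list was 0.73 in the pigment-high, 0.26 in the pigment-low and 0.22 in the other kept barcodes. Over all genes it was 0.08 in the pigment-high and 0.08 in the other kept barcodes. A smaller shift in the same direction was thus seen outside the pigment-high range, and the part of depth and doublets was not tested. The mitotic shares of the pigment-high range had overlapping intervals, 40.8% (28.9 to 52.5) and 40.6% (29.6 to 51.7) after thinning. Those of the pigment-low range were 83.5% and 46.9%, the latter from 16 barcodes.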

How the data were processed

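The deposited values were UMI counts for each gene and barcode. Per the file headers and the submitters' processing notes, the authors counted with Cell Ranger 6.1.1. Build mm10, Seurat 4.2.0 and R 4.3.0 are also in those notes, and the labels name both the V2 and V3 chemistry. From the deposited counts of 32286 features, UMIs were summed over the barcodes of a range and divided by their total (CPM). Intervals are exact Poisson, exact conditional (ratio) or Clopper-Pearson at 95%, cover counting error only, and no test was made, since each genotype has 1 library. A gene was measured with at least 50 pooled UMIs, and called past 1.5-fold. Groups were taken from the genotype labels. Shares at 3000 UMIs are expected shares after thinning, leaving out shallower barcodes. Doublet scores were computed with scanpy 1.11.5 (Scrublet). The automatic threshold marked 0 barcodes in either library, so no barcode was removed for the main values. The top 6% of scores served as a description and were removed in 1 of the alternatives. The ratio calculation was tested on simulated data. Python 3.11.15, numpy 2.4.6, scipy 1.17.1, pandas 2.3.3 and matplotlib 3.10.9 were used.

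The melanocyte barcodes and gene lists were chosen with earlier results of these data known. Named genes were all genes of the enzyme, melanosome, lineage and receptor lists. Of every other list they were the 4 measured members with the largest absolute log2 ratio. Among genes with at least 20 CPM and 100 pooled UMIs they were the 15 most enriched and the 10 with the largest ratio in each direction, both for genes 4-fold enriched and for all genes. Birc5 and YFP were always named. Ptch1, Edn1, Kitl, Krt14, Mki67 and Top2a were named after their values were seen. Alternatives were the pigment, gene and mitochondrial thresholds, the scaling, the minimum count, the male-called barcodes and the keratinocyte-share ranges, the last 2 ranges added after seeing the data.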

Additional observations from a re-analysis of the deposited data

How the results depend on the processing

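Of 84 recomputed values over 13 alternatives, 42 moved beyond the margin set for their kind, 1 reversed and 41 did neither. Over all melanocyte barcodes the main values were a share of 2.45% (control) and 2.30% (GOF), keratinocyte transcripts at 106% and 103% of the other barcodes, mitotic shares of 66.1% and 32.3%, a median log2 ratio of 0.82 over the melanocyte lists, a Birc5 ratio of 11.5, and 1719 genes higher and 621 lower. With a minimum of 5 pigment UMIs the control share was 4.88%, keratinocyte transcripts 105.6% and 104.9%, and the control mitotic share 77.2%. With a minimum of 50 the control share was 0.928%, keratinocyte transcripts 108.9% and 105.7%, the control mitotic share 38.2%, the list median 0.0876, the Birc5 ratio 14.2, and 672 and 264 genes were higher and lower. With at least 2000 genes the control share was 2.90% and keratinocyte transcripts 108.9% and 104.6%. With at most 5% mitochondrial UMIs they were 2.79%, 101.8% and 105.7%, with a control mitotic share of 73.1%. With the top 6% of doublet scores removed no value moved beyond its margin. The GOF share was then 2.13%, the GOF mitotic share 28.45%, the Birc5 ratio 12.3, and 1984 and 709 genes were higher and lower. Median-of-ratios scaling gave a Birc5 ratio of 10.2 with 983 genes higher and 956 lower, and the mean of barcode CPM a Birc5 ratio of 9.52. In male-called barcodes the Birc5 ratio was 17.1 and 1060 genes were lower. At a keratinocyte share under 50% the list median was 0.0943, the Birc5 ratio 29.8 (8.13 to 248.5), and 269 and 132 genes were higher and lower. That Birc5 ratio rests on 2 UMIs in the control keratinocyte-poor and 0 in the control intermediate barcodes. On the GOF side, 152 UMIs came from the 6 intermediate barcodes and 9 from the keratinocyte-poor ones. Requiring 20 pooled UMIs gave 961 lower genes, and requiring 200 gave 729 higher and 253 lower. In the keratinocyte-poor range the shares were 0.227% and 0.795%, the mitotic shares 37.15% and 14.3% and the list median 0.28. The Birc5 ratio there was 1.88 (0.389 to 17.9), and 196 and 91 genes were higher and lower. In the keratin-rich, pigment-high range the list median reversed to -0.14, the Birc5 ratio was 14.0, and 651 and 273 genes were higher and lower. The cause of these shifts was not tested.

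No paired analysis was possible because each genotype has 1 library. The keratinocyte-poor range held 130139 control and 311274 GOF UMIs, and 0 UMIs have an exact upper bound of 28.35 CPM in control and 11.85 CPM in GOF.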

Other observations

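Prl2c5, a member of a prolactin-like family of near-identical genes whose counts are therefore uncertain, had 0 UMIs in the 25 control and 87 UMIs in the 55 GOF keratinocyte-poor barcodes. Of these, 85 were in 4 barcodes, and 86 were in female-called ones. In the keratin-rich, pigment-high range it was at 17.3 and 18.7 CPM. Hk1, the hexokinase that starts glycolysis, was at 76.8 and 144.6 CPM in the keratinocyte-poor barcodes (ratio 1.88), while Pkm, the pyruvate kinase, was at 576 and 302 CPM (ratio 0.524). Of 10 measured glycolysis genes 1 was 1.5-fold higher and 1 lower, where 13.2% of all genes were higher and 6.14% lower. Pcna, the replication clamp, was at 223 and 106 CPM (ratio 0.476) and Cdkn1a, a cell cycle inhibitor, had a ratio of 0.519.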
